A study of Mus musculus with 4 samples.

Results

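RNA of the dorsal raphe nucleus from stressed D2LR-KO mice was compared with that from non-stressed control wild-type (WT) mice, 1 array against 1 array, taken by their titles from the 4 in the series. D2LR-KO mice lack the long form of the dopamine D2 receptor. The stressed group swam for 6 min on each of 4 consecutive days, and its tissue was dissected 12 h after the last swim; the control group was not made to swim. All mice were male, aged 10 weeks and on the C57BL/6J background, and each array carried RNA pooled from 5 mice. The other 2 arrays, stressed WT and stressed D2R-KO (no D2 receptor of either form), are given beside the results. Stress and genotype changed together in this pair, and no knockout was measured without stress, so their parts cannot be told apart. With 1 array per group no difference could be tested, no value has a replicate error, and differences are described by their size alone.

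The dorsal raphe is the midbrain nucleus from which serotonergic neurons project to the forebrain. Their firing is held down by serotonin 1A autoreceptors, and the D2 receptor, like the serotonin 1A receptor, couples to inhibitory G proteins of the Gi family. The D2 transcript is spliced into a long form, which carries an insert in the third intracellular loop, and a short form without it; D2LR-KO mice keep the short form. The comparison asks how gene expression after forced swimming in mice without the long form differed from that in undisturbed mice.

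Values named as intensity are those deposited by the authors, on a linear scale on which the median of each array is 25. Where 4 intensities follow each other, the order is control (non-stressed WT), stressed D2LR-KO, stressed WT and stressed D2R-KO. Differences are log2(signal + 50), stressed D2LR-KO minus non-stressed WT, a scale that understates changes of dim genes, and numbers in brackets after a gene are this difference. The 2 arrays detected 21362 and 21398 of 23464 gene probes, a share of 91.0% and 91.2%, and 15574 genes detected on at least 1 of them were compared. Their log2 signals correlated across genes (r = 0.991; genes are not independent replicates). Of the 7 markers of serotonergic neurons, 6 had a probe and all 6 were detected on every array; Fev was not named by the probe annotation. The summed intensity of those 6 was 2343.2 on the control array and 3624.9 in stressed D2LR-KO, with 1914.2 in stressed WT and 3370.8 in stressed D2R-KO. Ddc (1562.6 on the control array and 2253.8 in stressed D2LR-KO) and Slc18a2 (702.5 and 1132.7) dominated that sum. In such bulk RNA, fewer cells of a type and less RNA per cell cannot be told apart.

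Drd2 was read by 1 probe, whose place relative to the deleted part is unknown here, so its level does not check the genotype labels. Its intensity was 26.8 on the control array and 48.3 in stressed D2LR-KO, with 43.8 in stressed WT and 20.9 in stressed D2R-KO. The stressed D2LR-KO value was the highest of the 4, with a difference of 0.48 that was -0.28 when the brightness around each spot was subtracted. The dopamine receptors Drd1 (-0.10) and Drd3 (0.00) were dimmer than the array median on both arrays.

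Between the 2 arrays, 17 genes were at least 2-fold higher in stressed D2LR-KO, which is 0.109% of those compared, and 48 were at least 2-fold lower, which is 0.308%. All of them were detected on both arrays, and their names formed a few groups. The higher genes were led by smooth muscle and meningeal genes, with Tph2, Slc6a5, Pvalb and Hoxa5 of brainstem neurons. The lower genes held choroid plexus genes, forebrain and synaptic genes, and genes known to be induced by glucocorticoids or by activity. The split depended on the scaling: 8 genes were higher and 74 lower when each array was scaled to one median, and 492 higher and 135 lower when the brightness around each spot was subtracted. At 1.5-fold, the limit used for the gene lists, 116 genes were higher (0.745%) and 219 lower (1.41%).

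**Figure D1:**
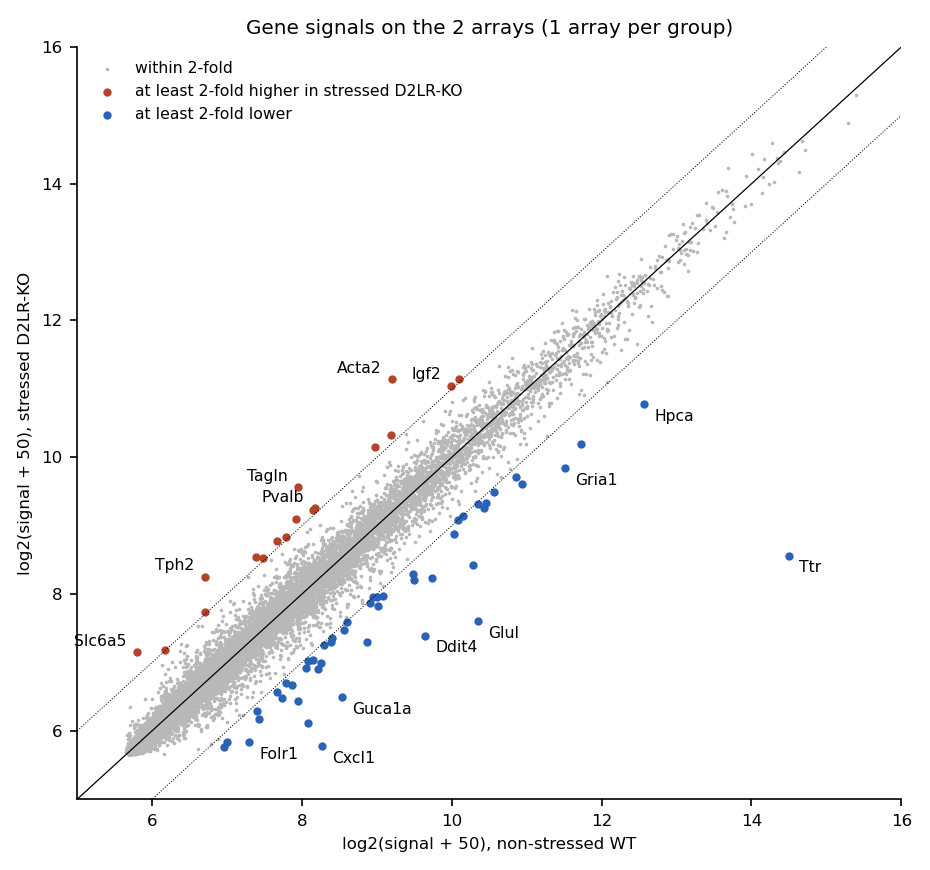
Each point is 1 of the 15574 genes compared, with log2(signal + 50) on the non-stressed WT array on the x axis and on the stressed D2LR-KO array on the y axis; the solid line marks equal signals, the dotted lines 2-fold, and there is 1 array per group. The 17 higher genes (red) lie close to the upper line apart from Acta2, Tagln, Tph2 and Slc6a5, while Ttr, with a difference of -5.94, lies farthest from the lower line among the 48 lower genes (blue).

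Of 12 compared genes that make, store, take up or break down serotonin, 3 were at least 1.5-fold higher in stressed D2LR-KO and 0 lower, with a list median of 0.35 against 0.00 over all genes. Tph2, the rate-limiting enzyme of serotonin synthesis in neurons, had an intensity of 31.4 on the control array and 151.5 in stressed D2LR-KO, with 10.7 in stressed WT and 264.6 in stressed D2R-KO. Both knockout arrays thus lay above both WT arrays, and the difference from non-stressed WT was 1.55. Slc6a4, the serotonin transporter, followed the same order of arrays, at 11.6, 43.5, 6.8 and 89.6, with a difference of 0.83. Gchfr, the feedback regulator of the enzyme that makes the hydroxylase cofactor, stood at 19.4, 60.7, 18.5 and 87.1 (0.88). Ddc, the decarboxylase that completes synthesis (0.45), and Slc18a2, the vesicular monoamine transporter (0.58), were below the 1.5-fold limit. Tph2 was under 2-fold higher (0.47) with the brightness around each spot subtracted.

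Of the serotonin receptors and the transcription factors of serotonergic neurons, few passed 1.5-fold on the scale with the added constant. Many of these probes were dim, where that constant shrinks differences. Examples are Htr1b (2.5 on the control array and 1.7 in stressed D2LR-KO), Htr6 (4.5 and 2.7) and Lmx1b (4.3 and 4.2). Htr1a, the serotonin 1A receptor, was at 28.7, 21.7, 22.6 and 33.7 (difference -0.18), with stressed D2LR-KO and stressed WT close together. Htr3a, the subunit of the serotonin-gated ion channel, was at 37.4, 14.6, 43.0 and 5.7 (-0.59), lower on both knockout arrays. It was the only one of 13 compared receptors past 1.5-fold, and the list median was -0.04, or 0.07 with each array scaled to one median. On the deposited intensities, without the added constant, the receptor median was -0.40, beside 0.48 for the genes that make, store, take up or break down serotonin. None of 6 transcription factors of serotonergic neurons was past 1.5-fold in either direction, with a median of 0.00, or -0.01 on the deposited intensities. Of 11 genes of dopamine neurons and receptors 1 was at least 1.5-fold lower, Nr4a2, a nuclear receptor of dopamine neurons (-0.72), and the list median was -0.01, or 0.01 with each array scaled to one median. Of 27 genes of Gi signalling 1 was at least 1.5-fold lower, the G protein subunit Gnai1 (-0.59), with a median of -0.03.

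Of 18 compared contractile genes of smooth muscle, 7 were at least 1.5-fold higher in stressed D2LR-KO and 0 lower, with a list median of 0.33. Acta2, the actin of vascular smooth muscle, had an intensity of 319.9 on the control array and 1364.9 in stressed D2LR-KO, with 235.5 in stressed WT and 512.7 in stressed D2R-KO, and its difference of 1.94 was the largest among the higher genes. Tagln, the actin-binding protein transgelin, was at 116.7, 426.4, 32.6 and 137.2 (1.62). Cnn1, the thin-filament protein calponin, was at 12.5, 55.0, 4.7 and 24.7 (1.01). Tpm2, a tropomyosin, was at 76.0, 187.7, 54.2 and 102.5 (1.04). On each of these probes stressed D2LR-KO was the highest and stressed WT the lowest of the 4 arrays. Pln, the phospholamban that restrains the calcium pump (0.80), Mustn1 (0.70) and the smooth muscle myosin Myh11 (0.65) were the others past 1.5-fold. Acta2 was the only one of the 17 higher genes past 2-fold in all 6 other settings.

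Of 27 genes of the meninges and of fibroblast matrix, 11 were at least 1.5-fold higher and 0 lower, with a list median of 0.46. A positive difference was found for 26 of the 27, counting Col1a1 at 0.00. Igf2, the growth factor made by the leptomeninges, had an intensity of 567.6 on the control array and 1263.6 in stressed D2LR-KO, with 244.3 in stressed WT and 355.3 in stressed D2R-KO (difference 1.05). Mgp, the matrix Gla protein that inhibits calcification, was at 608.0, 1364.6, 177.0 and 759.8 (1.05). Crabp2, a carrier of retinoic acid, was at 113.9, 300.8, 14.7 and 94.3 (1.17). Ogn, a small proteoglycan of the matrix, was at 90.0, 232.2, 24.8 and 85.5 (1.11). Nupr1, a nuclear protein induced by stress in many cells, was at 68.9, 190.9, 31.4 and 67.8 (1.16). For all 5 the stressed D2LR-KO array was the brightest and the stressed WT array the dimmest, which placed the non-stressed WT array between them. Fn1, fibronectin (0.84), Col3a1 (0.77) and Col1a2 (0.61), which are fibrillar collagens, Bgn, biglycan (0.70), Fbln5, an elastic fibre protein (0.65), and Serping1, the inhibitor of complement C1 (0.60), were the others past 1.5-fold. Scaling each array to one median left 7 of them past 1.5-fold, and Col1a2 was at -0.01 with the brightness around each spot subtracted.

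The summed markers fixed for these cell types were higher as well, although the meningeal marker Col1a1 was at 8 on both arrays. The 4 smooth muscle markers, which are themselves members of the contractile list, summed to an intensity of 461.8 on the control array and 1882.8 in stressed D2LR-KO, with 279.3 in stressed WT and 688 in stressed D2R-KO. Markers of meningeal fibroblasts summed to 1096.4, 1985, 605.5 and 700.2. Among them Igf2, Col1a2, Col1a1 and Dcn are also members of the meninges list, so this sum is not separate from it. Igf2 alone was at 567.6, 1263.6, 244.3 and 355.3. Endothelial markers summed to 1068.4, 1175, 488.2 and 1108.2, close together except on the stressed WT array. No marker of these sets was undetected on any array. Of 19 genes of endothelial cells and pericytes 1 was at least 1.5-fold higher, the membrane protein Itm2a (0.60), with a list median of 0.13. How far the share of vessel and meningeal tissue entered the other higher genes was not tested.

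**Figure D2:**
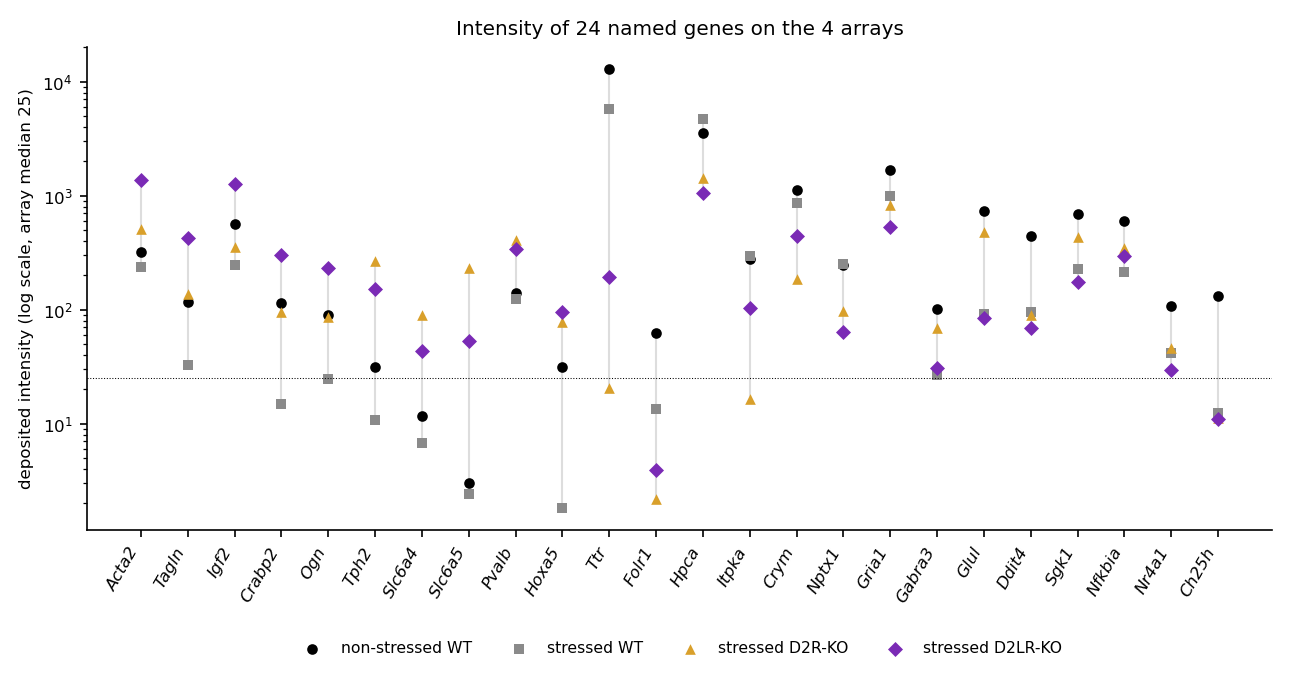
Deposited intensity (log scale, dotted line at the array median of 25) of 24 named genes on the 4 arrays, 1 point per array. For Acta2, Tagln, Igf2, Crabp2 and Ogn the stressed D2LR-KO array (diamonds) is highest and the stressed WT array (squares) lowest; for Tph2, Slc6a4, Slc6a5, Pvalb and Hoxa5 both knockout arrays lie above both WT arrays; for Ttr, Folr1, Hpca, Itpka and Crym both lie below.

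Of 20 genes of hindbrain and spinal neurons, 4 were at least 1.5-fold higher and 1 lower, with a list median of 0.21. Slc6a5, the neuronal glycine transporter of inhibitory brainstem neurons, had an intensity of 3.0 on the control array and 53.2 in stressed D2LR-KO, with 2.4 in stressed WT and 231.9 in stressed D2R-KO. Its difference was 1.36, and 4.15 on the log2 intensities without an added constant. Pvalb, the calcium buffer parvalbumin, was at 140.7, 336.8, 124.6 and 405.5 (1.09). Hoxa5, a homeobox factor of the posterior axis, was at 31.3, 95.6, 1.8 and 77.2 (1.04), and its paralogue Hoxb5 was at 50.6, 108.0, 4.2 and 141.1 (0.78). On these 4 probes both knockout arrays lay above both WT arrays. The exception in the other direction was the glycine receptor subunit Glra1, at 53.2, 23.1, 28.6 and 52.8 (-0.64).

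The other genes at least 2-fold higher belonged to none of these groups. Anp32a, a nuclear phosphoprotein that inhibits protein phosphatase 2A, had an intensity of 267.8 on the control array and 673.2 in stressed D2LR-KO, with 405.4 in stressed WT and 751.4 in stressed D2R-KO (difference 1.18). Rsrp1 followed the same order, at 315.3, 749.6, 498.1 and 829.8 (1.14). Fam177a was at 138.1, 331.5, 146.6 and 319.0 (1.08), but a further probe of that gene read 43.5 in non-stressed WT and 43.2 in stressed D2LR-KO, a difference of 0.00. Emp3, an epithelial membrane protein, was at 100.8, 243.1, 37.5 and 80.5 (1.05). Of 14 oligodendrocyte and myelin genes 3 were at least 1.5-fold higher, namely Aspa, the enzyme that cleaves N-acetylaspartate (0.96), the myelin-associated glycoprotein Mag (0.70) and Opalin (0.69), with a list median of 0.26. The summed intensity of 3 oligodendrocyte markers was 11689.3 in non-stressed WT and 15472.8 in stressed D2LR-KO.

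Of 17 compared genes of choroid plexus and ependyma, 9 were at least 1.5-fold lower in stressed D2LR-KO and 0 higher, with a median of -0.65. Ttr, the thyroid hormone carrier that choroid plexus secretes, had an intensity of 12884.0 on the control array and 193.1 in stressed D2LR-KO, with 5720.2 in stressed WT and 20.3 in stressed D2R-KO, and its difference of -5.94 was the largest of the comparison. Folr1, a folate receptor, was at 62.8, 3.9, 13.4 and 2.2 (-1.46). Kcne2, a potassium channel subunit, was at 45.6, 4.0, 9.9 and 7.6 (-1.17), and Calml4, a calmodulin-like protein, at 43.5, 2.4, 10.0 and 2.9 (-1.20). Clic6 (-1.0), Tmem212 (-0.98), Sostdc1 (-0.93), the tight junction protein Cldn2 (-0.68) and Kl, klotho (-0.65), were past 1.5-fold. Ecrg4, which was not a member of that list and encodes a secreted peptide precursor, was at 151.2, 44.8, 39.1 and 31.9 (-1.27). The 5 choroid plexus markers, all members of the list, summed to 13067.6, 217.9, 5755.5 and 43.3, a sum that Ttr dominated. Without Ttr the other 4 summed to 183.6, 24.8, 35.3 and 23.0, so that all 3 stressed arrays lay below the control. Kl (36.0, 12.0, 2.8 and 8.0) and Cldn2 (32.7, 9.1, 3.5 and 5.6) were lowest in stressed WT. The markers' part in the other lower genes was not tested.

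Of 26 compared genes of forebrain neurons, 11 were at least 1.5-fold lower in stressed D2LR-KO and 0 higher, with a median of -0.49. On the deposited intensities 20 were lower, a setting in which the count over all genes also rose, from 219 to 1040. Hpca, the calcium sensor hippocalcin, had an intensity of 3547.1 on the control array and 1042.5 in stressed D2LR-KO, with 4733.4 in stressed WT and 1413.9 in stressed D2R-KO (difference -1.79). Nptx1, a pentraxin that clusters AMPA receptors, was at 247.5, 63.0, 250 and 97.9 (-1.57). Dlx1, a homeobox factor of GABAergic interneurons, was at 116, 21.1, 69.9 and 13.5 (-1.5). Crym, which binds thyroid hormone in the cytosol, was at 1128.1, 440.9, 857.5 and 186.6 (-1.32). Itpka, an inositol trisphosphate kinase of dendritic spines, was at 277.8, 104.0, 292.7 and 16.4 (-1.19). For these 5 both knockout arrays lay below both WT arrays. Neurod6, a bHLH factor of cortical pyramidal cells, was at 138.1, 47.1, 113.8 and 56.2 (-1.11), and showed that order too.

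Icam5, an adhesion molecule of telencephalic dendrites, was at 793.6 on the control array and 359.3 in stressed D2LR-KO, with 220.3 in stressed WT and 241.4 in stressed D2R-KO (difference -1.12), so stressed WT was the lowest. Pde1a, a calmodulin-dependent phosphodiesterase, was at 1072.9, 478.5, 486.2 and 284.7 (-1.15). Nrgn, the calmodulin-binding protein neurogranin (-0.98), Neurod1 (-0.68) and the AMPA receptor auxiliary protein Cnih2 (-0.59) were past 1.5-fold. Neurod1 was at 0.03 with the brightness around each spot subtracted. Of the 5 fixed markers of forebrain neurons 3 were on the array, all detected, and their summed intensity was 168.1, 67.5, 133 and 75.1. Neurod6, already given above at 138.1, 47.1, 113.8 and 56.2, dominated that sum, which therefore adds little to it. The part of forebrain tissue in these differences was not tested.

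**Figure D3:**
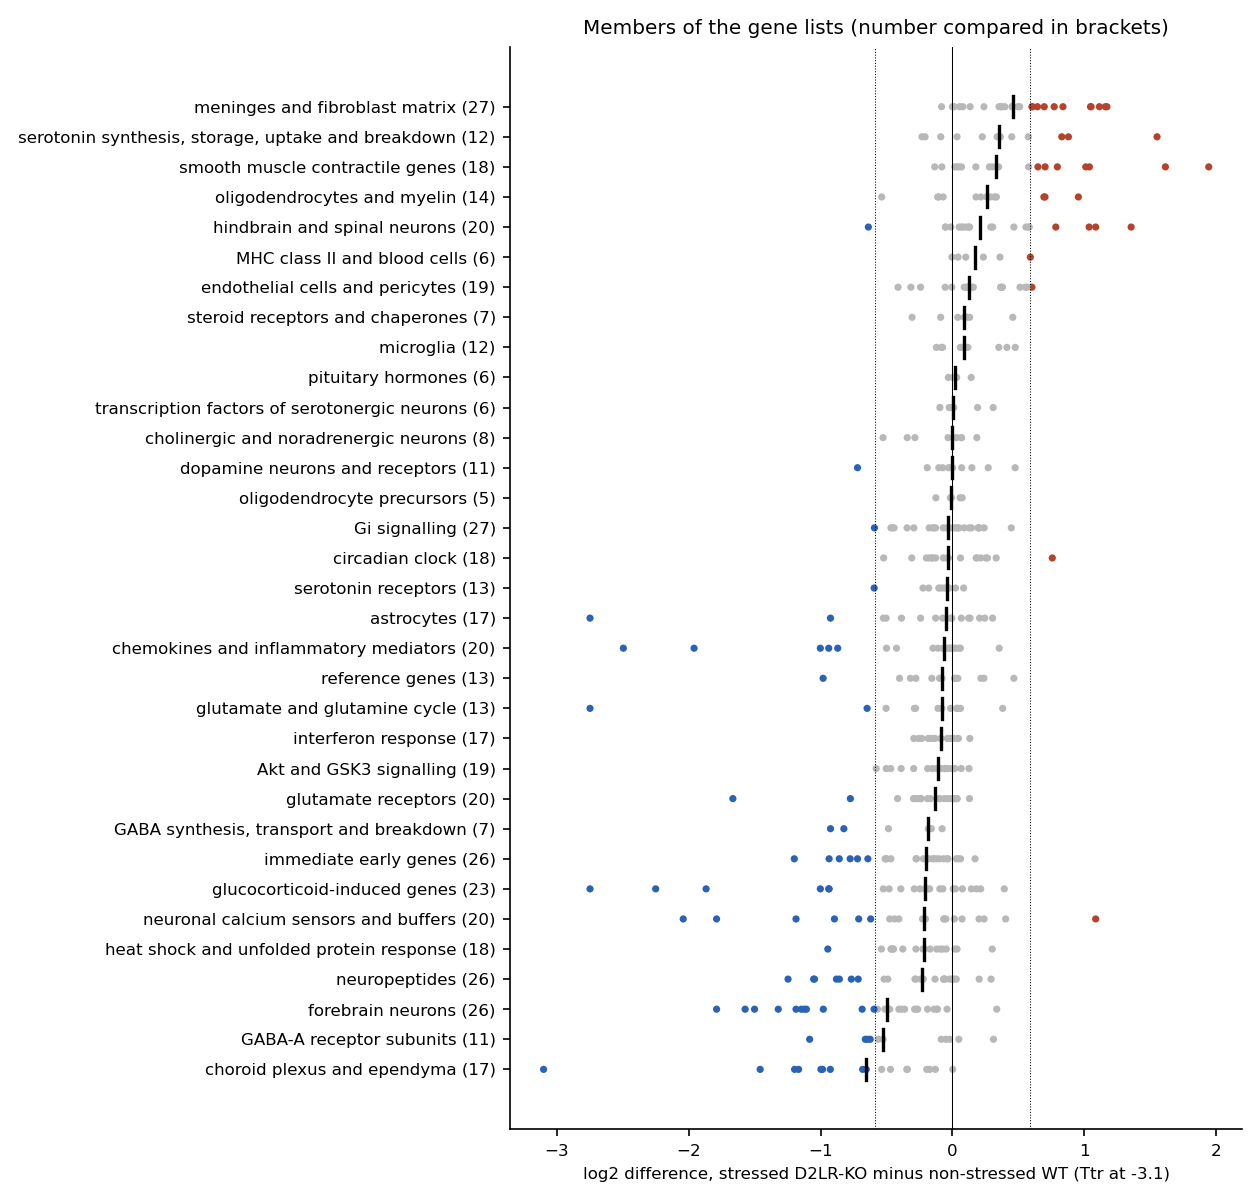
Log2 difference (stressed D2LR-KO minus non-stressed WT, 1 array each) of every compared member of the 33 gene lists, with the number compared in brackets and Ttr drawn at the edge in place of -5.94; red and blue points are past 1.5-fold (dotted lines) and black bars are list medians, ordered from high to low. Medians run from 0.46 for meninges and fibroblast matrix to -0.65 for choroid plexus and ependyma, against 0.00 over all genes.

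Calcium sensors and buffers were split. Besides Hpca and Itpka, Guca1a, an activator of guanylate cyclase, had an intensity of 189.3 on the control array and 23.0 in stressed D2LR-KO, with 68.6 in stressed WT and 20.5 in stressed D2R-KO (difference -2.04). Hpcal4 (-0.89), the potassium channel subunit Kcnip2 (-0.71) and Vsnl1, visinin-like protein (-0.62), were past 1.5-fold, while Pvalb was higher. The list thus had 6 of 20 lower and 1 higher, with a median of -0.22. Vsnl1 was at 0.60 with the brightness around each spot subtracted.

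Subunits of receptors for fast transmitters were lower where they passed 1.5-fold. Gabra3, the alpha-3 subunit found in monoaminergic nuclei, had an intensity of 100.8 on the control array and 31.0 in stressed D2LR-KO, with 26.8 in stressed WT and 68.3 in stressed D2R-KO (difference -1.08). Gabra4 (-0.66), Gabrb2 (-0.64) and Gabrb1 (-0.62) were past 1.5-fold, which made 4 of 11 subunits lower and 0 higher, with a median of -0.53. That median was -0.12 with the brightness around each spot subtracted. Gabra4 was then at -0.04 and Gabrb2 at -0.05, while Gabra3 was at -1.26 and Gabrb1 at -0.60. Gria1, a subunit of the AMPA receptor, was at 1685.6, 528.5, 997.1 and 818.3 (-1.66), lowest in stressed D2LR-KO. With the brightness around each spot subtracted it stood at 3.89, the widest change of direction among the genes named. Gria2, the subunit that limits calcium entry, was at 607.3, 355.8, 359.3 and 324.2 (-0.77), lower on each of the 3 stressed arrays. These were the 2 members of 20 glutamate receptor genes past 1.5-fold, and the list median was -0.13.

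The enzymes and transporters that clear glutamate and GABA differed through a few members. Glul, the glutamine synthetase of astrocytes, had an intensity of 728.9 on the control array and 84.5 in stressed D2LR-KO, with 90.6 in stressed WT and 474.3 in stressed D2R-KO (difference -2.75). Stressed WT and stressed D2LR-KO were thus low and close together, and stressed D2R-KO lay nearer to non-stressed WT. Slc1a4, a neutral amino acid transporter (-0.65), was the other of 13 members of the glutamate and glutamine cycle past 1.5-fold (median -0.08). Slc6a11, the astrocytic GABA transporter, was at 233.6, 108.3, 112.1 and 207.7 (-0.92), with the same pairing of arrays as Glul. Abat, the GABA transaminase, was at -0.82 by its brighter probe and -0.03 by a dimmer one; with Slc6a11 it made 2 of 7 genes of GABA synthesis, transport and breakdown lower and 0 higher (median -0.18). Astrocyte markers summed to an intensity of 3491 in non-stressed WT and 3984.3 in stressed D2LR-KO, and 2 of 17 astrocyte genes were at least 1.5-fold lower, Glul and Slc6a11, with a median of -0.05.

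Of 26 neuropeptide genes, 7 were at least 1.5-fold lower and 0 higher, with a median of -0.23. Cartpt, the precursor of the CART peptides, had an intensity of 274.7 on the control array and 116.8 in stressed D2LR-KO, with 451.7 in stressed WT and 157.6 in stressed D2R-KO (difference -1.05). Tac2, the precursor of neurokinin B, was at 71.4, 12.6, 50.6 and 6.5 (-1.25). Nts, neurotensin, was at 130.2, 46.4, 103.7 and 85.8 (-1.05). In each of these the knockout arrays lay below the WT arrays. Tac1, the substance P precursor (-0.88), Cck (-0.86), Npy (-0.77) and Pmch, the precursor of melanin-concentrating hormone (-0.71), were past 1.5-fold; Npy was at 0.28 with the brightness around each spot subtracted. Npy2r, the presynaptic Y2 receptor for neuropeptide Y, was at 477.8, 148.4, 245.7 and 145.1 (-1.51).

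Of 23 genes known to be induced by glucocorticoids, the adrenal hormones of the stress response, 6 were at least 1.5-fold lower in stressed D2LR-KO than in non-stressed WT and 0 higher, with a median of -0.21. Sgk1, a kinase that regulates ion channels, had an intensity of 691.4 on the control array and 173.2 in stressed D2LR-KO, with 226.2 in stressed WT and 429.7 in stressed D2R-KO (difference -1.87). Ddit4, an inhibitor of mTOR signalling, was at 442.1, 68.8, 94.4 and 90.0 (-2.25). Nfkbia, the inhibitor of NF-kappaB, was at 601.8, 296.2, 212.2 and 349.7 (-1.0). On all 3 the non-stressed WT array was the brightest. Lcn2, lipocalin-2 (-0.94), Dusp1, a phosphatase of MAP kinases (-0.93), and Glul were the others past 1.5-fold. Nr3c1, the glucocorticoid receptor, stood at 36.9, 32.4, 14.7 and 31.1 (-0.09, or 0.48 with the brightness around each spot subtracted), and none of 7 steroid receptor and chaperone genes was past 1.5-fold (median 0.09). Sgk1 was at 0.75 with the brightness around each spot subtracted.

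Immediate early genes, which neurons transcribe within minutes of activity, were lower in part. Nr4a1, an orphan nuclear receptor, had an intensity of 108.1 on the control array and 29.6 in stressed D2LR-KO, with 41.9 in stressed WT and 46.3 in stressed D2R-KO (difference -1.20). Dusp1, Egr1 (-0.86), the matrix protein Ccn1 (-0.78), Nr4a2 and Jun (-0.64) made 6 of 26 lower and 0 higher, with a median of -0.20. Fos was at 155.9, 124.4, 32.0 and 108.4 (-0.28), and stressed D2LR-KO lay nearer to non-stressed WT than to stressed WT. Plk2, a polo-like kinase induced by synaptic activity and outside this list, was at 289.8, 119.3, 227.0 and 147.0 (-1.10). The list count was 10 with each array scaled to one median and 13 on the deposited intensities. The count over all genes also rose in these settings, from 219 lower as reported to 451 and 1040.

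A few inflammatory genes were brightest on the non-stressed WT array. Cxcl1, a chemokine for neutrophils, had an intensity of 152.9 on the control array and 2.6 in stressed D2LR-KO, with no deposited value in stressed WT and 1.3 in stressed D2R-KO (difference -2.50). Ch25h, cholesterol 25-hydroxylase, was at 130.4, 11, 12.3 and 11.1 (-1.96). Ptgs2, the inducible cyclooxygenase, was at 45.4, 11.3, 21.1 and 12.1 (-0.87). With Nfkbia and Lcn2 these made 5 of 20 chemokine and inflammatory genes lower and 0 higher, with a median of -0.06. Ackr1, a chemokine scavenger of venules, was at 170.1, 66.8, 48.4 and 92.2 (-1.04). None of 17 interferon-response genes was past 1.5-fold (median -0.09). None of 12 microglial genes was either, with a median of 0.09 that was -0.07 with each array scaled to one median and -0.05 with the brightness around each spot subtracted, and microglial markers summed to 944.2 in non-stressed WT and 1081.3 in stressed D2LR-KO.

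The promoters of the immediate early and glucocorticoid-induced lists, and of the genes past 2-fold, were searched on both strands. Most members of these lists were not past 1.5-fold. The cAMP response element TGACGTCA, through which CREB acts, was sought. So was the glucocorticoid response element, an inverted repeat bound by the glucocorticoid receptor. Windows ran from 250 bases before to 50 after the start sites of RefSeq on GRCm38.p6. The cAMP element stood in 1.79% of 32851 windows and in 2.03% of genes. Of the 48 genes at least 2-fold lower 36 had a window, and 3 of these held the element, which is 8.33%. Of the immediate early genes 2 of 24 held it, Btg2 and Dusp1, and of the glucocorticoid-induced genes 3 of 23, Arl4d, Dusp1 and Errfi1. Of the genes at least 2-fold higher 0 of 13 held it, but H2-Aa, past 1.5-fold higher (0.59), did. The glucocorticoid element stood in 0.475% of windows and in 0.537% of genes. It stood in 3 of 23 glucocorticoid-induced genes with a window, Map3k6, Mt1 and Sgk1, in 1 of 24 immediate early genes, Jund, and in 1 of the 36 lower genes, Sgk1. Of the genes with a match, Btg2, Arl4d, Errfi1, Map3k6, Mt1 and Jund were not past 1.5-fold. A match is a description of letters and not of binding. The stretches upstream of the start site are shown for the lower genes that held a match, because their values are given above, with the element in capitals and written along the gene's strand.
Cartpt, chr13:99900728-99900855, minus strand: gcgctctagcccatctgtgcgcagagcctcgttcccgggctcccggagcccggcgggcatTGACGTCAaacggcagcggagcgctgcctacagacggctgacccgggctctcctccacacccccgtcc
Plk2, chr13:110394922-110395043, plus strand: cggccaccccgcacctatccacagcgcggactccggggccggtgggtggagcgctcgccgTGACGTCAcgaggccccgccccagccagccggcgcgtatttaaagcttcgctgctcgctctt
Ch25h, chr19:34475149-34475269, minus strand: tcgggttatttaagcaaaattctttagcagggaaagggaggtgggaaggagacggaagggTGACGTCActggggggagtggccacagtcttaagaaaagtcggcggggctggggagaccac
Dusp1, chr17:26508548-26508675, minus strand: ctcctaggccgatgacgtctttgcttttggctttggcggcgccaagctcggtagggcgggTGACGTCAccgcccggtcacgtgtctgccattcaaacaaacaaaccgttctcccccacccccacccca
Sgk1, chr10:21993642-21993774, plus strand: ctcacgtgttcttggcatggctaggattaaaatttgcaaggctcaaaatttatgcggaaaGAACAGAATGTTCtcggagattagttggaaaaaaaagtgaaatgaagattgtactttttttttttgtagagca
Of the elements shown, those of Ch25h and Plk2 lie nearest to the start site, ending 53 and 54 bases before it.

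For the higher genes the window was searched for the CArG box, the site of serum response factor, which drives contractile genes. It stood in 1.63% of all windows and in 1.81% of genes. Of the smooth muscle list 2 of 15 genes with a window held it, Srf, which was at -0.13, and Myl9, which no compared probe names. Of the 13 genes at least 2-fold higher that had a window, 1 held it, Igf2. So did Aspa, which was past the 1.5-fold limit (0.96). Both are shown with the box in capitals. It also stood in 2 of 24 immediate early genes, Dusp5 and Egr2, and in 0 of the 36 lower genes.
Igf2, chr7:142661357-142661486, minus strand: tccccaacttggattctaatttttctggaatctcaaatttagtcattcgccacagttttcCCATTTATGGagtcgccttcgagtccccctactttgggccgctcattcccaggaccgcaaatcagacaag
Aspa, chr11:73324640-73324769, minus strand: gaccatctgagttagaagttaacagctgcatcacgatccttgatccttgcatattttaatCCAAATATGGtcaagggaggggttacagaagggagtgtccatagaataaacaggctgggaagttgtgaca
No match in a window says only that these letters are not in it.

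The lower genes outside the lists included several of neuronal membranes and signalling. Ly6h, a membrane-anchored protein that binds nicotinic receptors, had an intensity of 1947.9 on the control array and 693.2 in stressed D2LR-KO, with 1709.9 in stressed WT and 701.6 in stressed D2R-KO (difference -1.53). Pcdh20, a protocadherin, was at 398.4, 145.5, 372.3 and 127.3 (-1.29), Camkv, a kinase-like protein of synaptic vesicles, at 394.4, 156.0, 278.1 and 130.1 (-1.19), and Myo5b, a myosin motor, at 90.3, 25.6, 85.9 and 28.6 (-1.10). On these 4 the knockout arrays lay below the WT arrays. Gprasp1, which sorts receptors such as the D2 receptor to lysosomes, was at 128.0, 41.4, 33.5 and 46.2 (-1.13). The adhesion molecules Cadm1 (633.2, 309.9, 360.7 and 408.7; -1.02) and Nectin3 (198.2, 83.1, 131.4 and 95.8; -1.01) were lowest in stressed D2LR-KO. Mmd, a membrane protein, was at 864.2, 405.1, 587.7 and 423.1 (-1.07), and Slc22a17, the lipocalin-2 receptor, at 254.8, 107.8, 177.2 and 109.2 (-1.04). Mmp17, a membrane-bound metalloproteinase, was at 167.1, 62.4, 117.4 and 85.3 (-1.09).

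Dynll2, a dynein light chain, had an intensity of 146.8 on the control array and 40.0 in stressed D2LR-KO, with 40.9 in stressed WT and 61.9 in stressed D2R-KO (difference -1.32). Prmt1, the main arginine methyltransferase, was at 776.7, 338.3, 337.7 and 594.9 (-1.17), with stressed D2R-KO nearer to the control. Ak5, a brain adenylate kinase, was at 156.5, 60, 55.0 and 54.6 (-1.04), and Rab5c, a GTPase of early endosomes, at 263.4, 115.9, 125.1 and 155.7 (-1.0). Rbbp4, a histone chaperone, was at 724.8, 353.5, 272.1 and 365.2 (-1.04), and Plagl1, an imprinted zinc finger factor, at 582.9, 251.0, 186.6 and 307.9 (-1.16). The small GTPase Rasl11a was at 69.7, 16.2, 20.8 and 20.9 (-1.10). The homeobox factor Lhx2 was at 193.3, 74.6, 86.9 and 61.0 (-1.09), and the protease inhibitor Spink8 at 96.4, 22.7, 46.0 and 16 (-1.25). On every one of these probes the non-stressed WT array was the brightest. With the brightness around each spot subtracted, Lhx2 was at 0.06 and Nectin3 at 0.24.

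The remaining lists held few genes past 1.5-fold. Dnajb1, a co-chaperone of Hsp70 (-0.94), was the 1 lower gene of 18 for heat shock and the unfolded protein response (median -0.22). Dbp, a clock output factor, was the 1 higher of 18 circadian genes (median -0.04), at 235.7, 427.7, 644.4 and 551.1 (0.76), lowest in non-stressed WT. H2-Aa, an MHC class II chain (0.59), was the 1 higher of 6 MHC class II and blood cell genes (median 0.17), and was at -0.13 with the brightness around each spot subtracted. Of 13 reference genes Ywhaz was lower (-0.98), while Actb was at 0.24 (-0.32 with the brightness around each spot subtracted) and Gapdh at -0.10; the list median was -0.08, or 0.11 on the deposited intensities. None was past 1.5-fold among 19 genes of Akt and GSK3 signalling, 8 of cholinergic and noradrenergic neurons, 6 pituitary hormone genes and 5 of oligodendrocyte precursors, with medians between -0.11 and 0.02. With each array scaled to one median, the medians of the cholinergic and noradrenergic list and of the oligodendrocyte precursor list changed sign, to 0.01 and 0.00, and the pituitary median was -0.01 with the brightness around each spot subtracted.

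The stressed D2R-KO against stressed WT comparison shares no array with this one, and its values could be set beside it. There 425 of 15655 genes were at least 2-fold higher, which is 2.71%, and 403 were lower, which is 2.57%. Of the 17 genes higher in stressed D2LR-KO 8 were also higher there, namely Crabp2, Hoxa5, Mgp, Ogn, Pvalb, Slc6a5, Tagln and Tph2, which is 47.1% of the 17 and 1.88% of the 425. Of the 48 lower genes 15 were also lower there, which is 31.2% of the 48 and 3.72% of the 403. These were Camkv, Cartpt, Crym, Dlx1, Guca1a, Hpca, Itpka, Ly6h, Myo5b, Nptx1, Npy2r, Pcdh20, Pde1a, Tac2 and Ttr. Glul was the 1 gene past 2-fold in opposite directions. The number of such opposite genes was 4 with each array scaled to one median, 48 with the brightness around each spot subtracted and 41 on the deposited intensities. Acta2, which led the higher genes here, was at 0.59 there. Across 15354 genes, which are not independent replicates, the 2 sets of differences correlated weakly (r = 0.207), and the correlation was -0.0890 when each array was scaled to one median.

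**Figure D4:**
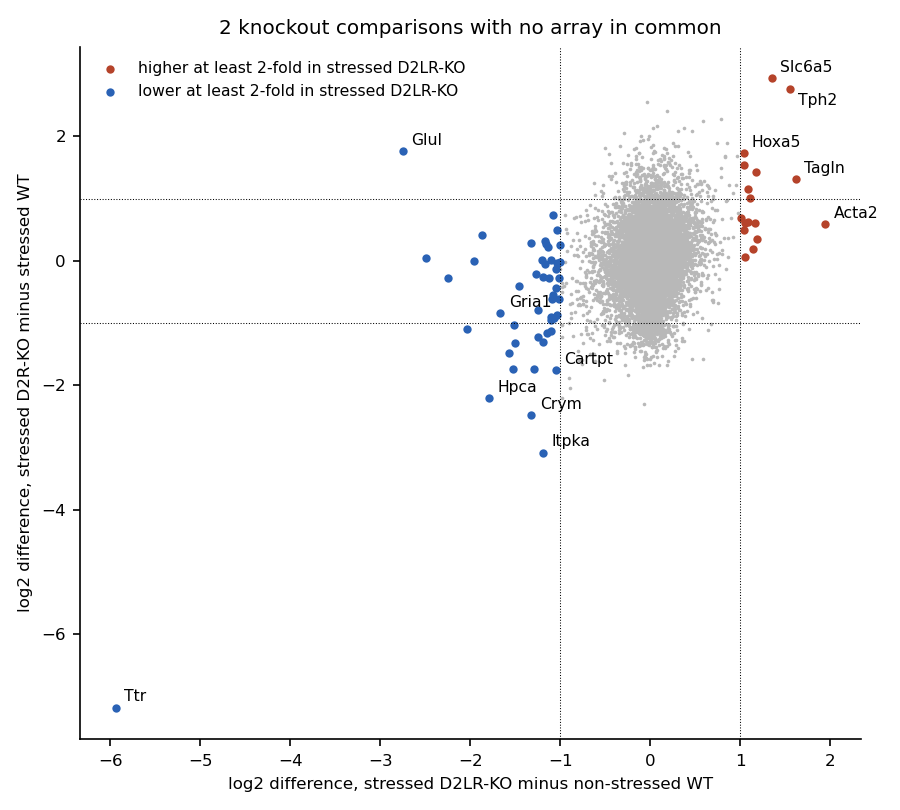
Log2 difference of each gene in stressed D2LR-KO minus non-stressed WT (x axis) against stressed D2R-KO minus stressed WT (y axis), 4 arrays in all; dotted lines mark 2-fold. Tph2, Slc6a5, Tagln and Hoxa5 are past both upper lines, Ttr, Itpka, Hpca, Crym and Cartpt are past both lower lines, and Glul is the 1 gene past 2-fold in opposite directions.

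How far each of the 2-fold genes held across settings differed between the 2 directions. All 48 lower genes stayed past 2-fold when each array was scaled to one median, and 30 did so in all 6 other settings, among them Ttr, Glul, Ddit4, Cxcl1, Hpca, Nptx1, Gabra3 and Nfkbia. Of the 17 higher genes 8 stayed past 2-fold with that scaling and 5 with the brightness around each spot subtracted. All 17 kept their sign in the 6 settings, as did 44 of the 48 lower genes; the exceptions, with that background alone, were Gria1, Lhx2, Nectin3 and Sgk1.

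**Figure D5:**
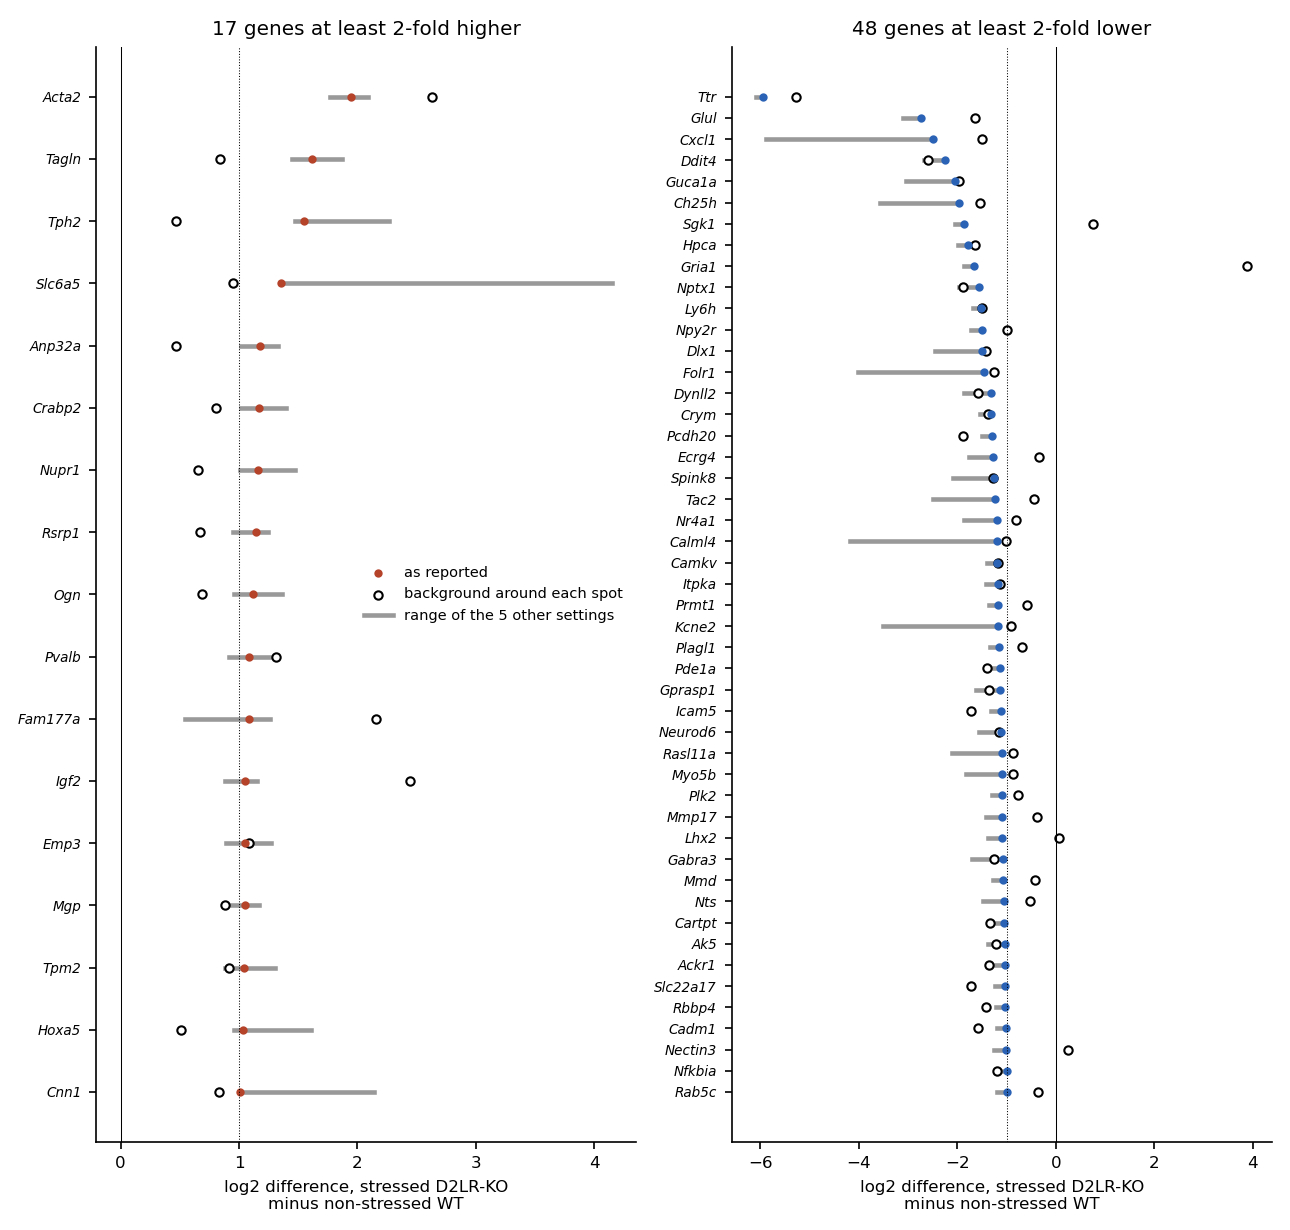
Log2 difference (stressed D2LR-KO minus non-stressed WT) of the 17 higher and 48 lower genes as reported (filled points), with the brightness around each spot subtracted (open circles) and over the 5 other settings (grey bars); the dotted line marks 2-fold. Acta2 is the 1 higher gene beyond 2-fold throughout, and the open circles of Gria1, Sgk1, Nectin3 and Lhx2 lie on the other side of 0.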

How the data were processed

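The scanner files give, per the file headers, a median intensity for every spot and another for the area around it, neither corrected for background, from 3 scans joined by the scanner software. Intensities in the authors' deposited value table are also linear. Their values equal the spot median less a constant (36.7 to 38.8 by array) over a factor (1.51 to 2.05 by array). Per the labels, amino allyl aRNA was labelled with Cy5; other upstream steps are not stated in the labels or headers.

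Spot medians were corrected with limma 3.58.1 in R 4.3.3 (function nec, blank spots as negative controls, offset 50), put on the log2 scale and quantile-normalized over the 4 arrays. Detection required a spot brighter than the blank spots' mean by 2 of their SDs (38.0 to 40.3; median gene spot 67.1 to 80.1). Brightness around a spot followed the spot itself (r = 0.876 to 0.958), and its subtraction is an alternative. The value table holds 23473 probes. A gene symbol was given for 16631 of them and none for 6842; of 16446 symbols 12501 matched RefSeq's gene names, 3883 were brought up to date and 62 left as they were. Probes with a spot marked unusable (9) were dropped. For genes with several probes (229 of 16383) the brightest on average was used. Repeated positive control spots (24 of each kind) gave a log2 difference between the 2 arrays with an SD of 0.180 and 0.227, which covers spots and not mice. The number of arrays limits the precision. Named were all genes past 2-fold that are not gene models, the list members past 1.5-fold, and 12 genes fixed by name (a 13th, Fev, has no named probe). The genes and lists were chosen with earlier results of these data known. Alternatives were median scaling, quantiles over the 2 arrays, local background, the deposited values (log2, no constant added), offset 16, the mean of a gene's probes, and detection on both arrays or no detection limit. The procedure was tested on simulated data. Python 3.11.15 (pandas 2.3.3, numpy 2.4.6) joined the tables.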

Additional observations from a re-analysis of the deposited data

Results flagged for a closer look

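Of 117 named genes past 1.5-fold in stressed D2LR-KO against non-stressed WT, 20 went the opposite way in stressed WT. For these the stressed WT array differed at least 1.5-fold from the same control. The share over all genes was not counted, and the named genes were chosen with earlier results known. Both comparisons share the control array, and the difference between them was not tested. Genes higher in stressed D2LR-KO but lower in stressed WT were mostly of meninges, matrix and vessels: Crabp2 (-1.71 in stressed WT), Mgp (-1.42), Itm2a (-1.21), Tagln (-1.20), Fn1 (-1.14), Ogn (-1.13), Emp3 (-0.91), Igf2 (-0.86), Bgn (-0.80), Nupr1 (-0.67) and Serping1 (-0.60). The homeobox factors Hoxb5 (-1.27) and Hoxa5 (-0.98), the serotonin synthesis enzyme Tph2 (-0.63) and the oligodendrocyte enzyme Aspa (-0.67) were placed in the same way. Genes lower in stressed D2LR-KO but higher in stressed WT were Nrgn (1.12), Cartpt (0.98), Ywhaz (0.86), Hpcal4 (0.76) and Hpca (0.70). Stressed D2R-KO differed in this manner for 2 genes, Igf2 (-0.79) and H2-Aa (-0.66), which also was not tested.

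Probes without a gene symbol took no part in the gene comparison. Of 6108 such probes compared, 3 were at least 2-fold higher (0.0491%) and 12 lower (0.196%). Probe M400014442 had an intensity of 1998.3 on the control array and 399.4 in stressed D2LR-KO, 4.90-fold lower, with 565.2 in stressed WT and 617.8 in stressed D2R-KO. Probe M400013330 had 25 on the control array and 185.9 in stressed D2LR-KO, 3.91-fold higher, with 208.8 in stressed WT and 131.1 in stressed D2R-KO.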

How the results depend on the processing

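No paired analysis was possible because each group has 1 array, and for the same reason no replicate could be left out. Scaling each array to one median turned the 17 higher and 48 lower genes into 8 and 74 at 2-fold, 54 and 451 at 1.5-fold, 5 higher in both knockout comparisons without a shared array, and a correlation of -0.0890 between these. Subtracting the brightness around each spot gave 492 and 135 at 2-fold, 1082 and 742 at 1.5-fold, 41 higher in both, and a correlation of -0.000842. The deposited intensities gave 224 and 340, 927 and 1040, and 68 higher and 82 lower in both. An offset of 16 gave 35 and 85, 250 and 368, and 17 and 23. Quantiles over the 2 arrays, the mean of a gene's probes, and the detection limits moved none of the 2-fold and 1.5-fold counts by over 1.5 times; of the counts in both knockout comparisons only the mean of a gene's probes was run among these, which left 8 and 15. With the brightness around each spot subtracted, 9 of 117 named genes past 1.5-fold changed direction: Gria1 (3.89), Sgk1 (0.75), Vsnl1 (0.60), Npy (0.28), Nectin3 (0.24), Lhx2 (0.0626), Neurod1 (0.0282), Col1a2 (-0.0115) and H2-Aa (-0.13); the cause was not tested. Of the 8 genes named whatever their value and under 1.5-fold, Drd2 (-0.28), Nr3c1 (0.48), Actb (-0.32) and Drd3 (-0.07) also took the other sign there, and Drd1 (0.04) with each array scaled to one median. Over 125 named genes and 6 settings, 558 values lay within 1 SD of repeated control spots of the reported one, and 183 farther away without a called gene changing direction. Signal over the blank spots limits dim genes: the added constant of 50 shrinks their differences, and without it most counts were larger.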

Other observations

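Outside the lists, 81 genes were between 1.5-fold and 2-fold higher in stressed D2LR-KO and 137 between 1.5-fold and 2-fold lower. The genes below were chosen after their values were seen and are given as values alone. Several higher ones encode cytoskeletal or matrix proteins. Igfbp7, a secreted binding protein of vessel walls, had an intensity of 436.4 on the control array and 872.4 in stressed D2LR-KO (0.92), with 127.2 in stressed WT and 391.0 in stressed D2R-KO. Vim, the intermediate filament vimentin (0.72), Cnn2, a calponin of non-muscle cells (0.76), Pdlim3 (0.74), the collagen-associated protein Cthrc1 (0.72), Cav1, the caveolar coat protein (0.65), and Mfap5, a microfibril protein (0.64), were higher too. Klk6, a protease of oligodendrocytes, had 226.9 on the control array and 485.0 in stressed D2LR-KO (0.97). Irx2, a homeobox factor, had 62.2 and 150.2 (0.96), with 18.9 in stressed WT and 133.5 in stressed D2R-KO.

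Several lower ones encode synaptic and signalling proteins. Cpne6, a calcium-dependent membrane-binding protein of forebrain neurons, had an intensity of 1081.3 on the control array and 581.5 in stressed D2LR-KO (-0.91), with 1241.3 in stressed WT and 470.5 in stressed D2R-KO. Prkacb, a catalytic subunit of protein kinase A, had 292.2 and 134.9 (-0.98), and Ppp3ca, the catalytic subunit of calcineurin, 1942.5 and 1210.5 (-0.74). Enc1 (-0.98), the diacylglycerol kinase Dgkg (-0.89), the spine protein Dbn1 (-0.83), Cplx2, a regulator of vesicle fusion (-0.81), and the vesicle protein Synpr (-0.75) were lower too. All the genes of these 2 paragraphs kept their direction in the 6 other settings, but they were chosen and do not stand for the rest. Other lower genes of this fold range changed direction with the brightness around each spot subtracted, among them Syn2 (0.07), Pcsk1n (2.02), Kcnab1 (0.89) and Syt17 (0.61). So did higher genes of this range, among them Gas5 (-1.22), Chd7 (-0.13), Ndufa4l2 (-0.11) and Ifitm1 (-0.08).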
